A study of Mus musculus with 2 samples.

Results

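Kidins220 is the gene that was deleted in the T cell lineage of the mice behind these data. It was taken by name, 1 of the 32285 genes in the count table, and its transcripts were followed in 10007 thymic cells of 8 sorted populations. Stage 0 and stage 3 invariant natural killer T (iNKT) thymocytes had been sorted from Ctrl and T-KO mice, in 2 pools of 4 thymi for each genotype. T-KO mice carried 2 floxed Kidins220 alleles together with a Cre transgene under the proximal Lck promoter (Kidins220 fl/fl LckCre). Ctrl mice carried the same Cre with at most 1 floxed allele (Kidins220 +/fl or Kidins220 +/+), so all animals expressed Cre, which in this line acts from an early double-negative thymocyte stage onwards. All mice were on a C57BL/6 background, and for age the sources used here give a range over all mice of the study, not the age of those sequenced. Each pool mixes several animals, so a value from it is not that of a single mouse.

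Kidins220, also called ARMS, is a large scaffold protein of the plasma membrane, first described as a substrate of protein kinase D and as a partner of neurotrophin receptors. In lymphocytes it binds the T cell receptor (TCR) and the B cell receptor and couples them, through Raf kinases, to the ERK pathway. iNKT cells carry a TCR that recognizes glycolipids on CD1d, arise from CD4+CD8+ (DP) thymocytes, and pass in the thymus from stage 0 to the mature stage 3, where most are iNKT1 cells.

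The populations were marked with hashtag antibodies, and pooled before capture in droplets. Transcripts were read from their 5′ ends in a single library, and the hashtags in another. The hashtag label pairs hashtags 1, 3 and 5 with stage 0 cells of Ctrl 1, Ctrl 2 and T-KO 1, and hashtags 2, 4 and 6 with stage 3 cells of the same pools, and its text as held here ends at hashtag 7. In the table the hashtag UMIs (unique molecular identifiers, 1 per captured molecule) lay almost wholly, 99.9%, on rows numbered 11 to 18 of 20. The sources used here do not say which of these rows belongs to which of the hashtags 1 to 8. The rows were therefore left without stage or genotype, Ctrl and T-KO were not compared, and each row is given as a single value. The bounds given with a level (CPM, UMIs of the gene per 1000000 gene UMIs) are exact 95% Poisson intervals, and those of a share of cells are Clopper-Pearson intervals. Both cover counting error only.

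Kidins220 lies on chromosome 12 of GRCm38 (mm10), on the plus strand, at chr12:24974925-25063152, and spans 88228 bases. GENCODE M21 lists 10 transcripts, 5 of them protein coding. The longest has 32 exons, and its coding sequence starts in exon 2. The start of the gene is overlapped by 630 bases of Gm36236, a non-coding RNA gene on the opposite strand that covers all 138 bases of the first exon of Kidins220. Only 5 UMIs of Gm36236 were counted in the 10007 cells. Because molecules were counted near their 5′ ends, a UMI of Kidins220 comes from the start of 1 of these transcripts, and which start was not recorded in the counts. Of the 10, 4 start within the first exon and the others downstream. The sources used here do not name the deleted exons, and transcripts of a recombined allele may still give such UMIs. Kidins220 counts therefore do not check which rows came from T-KO mice.

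The 250 bases before the RefSeq start site (RefSeq, GRCm38.p6, chr12:24974682-24974931, plus strand) are shown because the library counts transcripts from their 5′ ends and this sequence lies beside the most upstream starts. Its capitals mark the 2 motifs searched for on both strands, the E-box CACGTG and the GC box GGGCGG, here read from the minus strand as CCGCCC.
Kidins220 promoter: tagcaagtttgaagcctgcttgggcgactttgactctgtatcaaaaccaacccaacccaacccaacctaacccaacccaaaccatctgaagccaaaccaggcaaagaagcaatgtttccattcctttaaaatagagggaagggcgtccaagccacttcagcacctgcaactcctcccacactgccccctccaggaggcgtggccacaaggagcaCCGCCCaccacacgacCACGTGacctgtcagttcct
The E-box lay 20 to 15 bases and the GC box 36 to 31 bases before the start, without overlap. Of 27025 mouse promoter windows of this length, 6.05% held CACGTG, 32.9% held GGGCGG and 2.80% held both. These are matches of letters only.

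Kidins220 was a gene of low abundance. The 10007 cells held 1269 of its UMIs, or 21.5 CPM, and 8870 cells (88.6%) had none. A single UMI was counted in 1014 cells, 2 in 115 cells and 3 or more in 8 cells, with a maximum of 4. A cell without a Kidins220 UMI is thus no evidence of a cell without the transcript, and all levels below are sums over the cells of a group.

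The level differed between hashtag rows. It was 19.7 CPM in row 11 (17 to 22.7), 21.0 in row 13 (18.7 to 23.5), 14.5 in row 15 (12.1 to 17.2) and 13.9 in row 17 (10.9 to 17.4). In the even rows it was 28.4 CPM in row 12 (24.3 to 33.0), 35.2 in row 14 (31.0 to 39.7), 17.5 in row 16 (12.5 to 23.9) and 20.4 in row 18 (16.6 to 24.9). Rows 14 and 12 were the highest and rows 15 and 17 the lowest, and every row held Kidins220 UMIs, from 40 in row 16 to 307 in row 13. In the order from high to low (14, 12, 13, 18, 11, 16, 15, 17), rows 12 and 13 were the only neighbours whose intervals were apart. Of the 28 pairs of rows, 13 had intervals that did not overlap, and at least as many pairs were apart for 56.8% of the 6745 genes of at least 20 CPM, so this count is ordinary. Gene UMIs per row ranged from 2283162 (row 16, 577 cells) to 14601545 (row 13, 1601 cells), which makes row 16 the least certain.

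**Figure D1:**
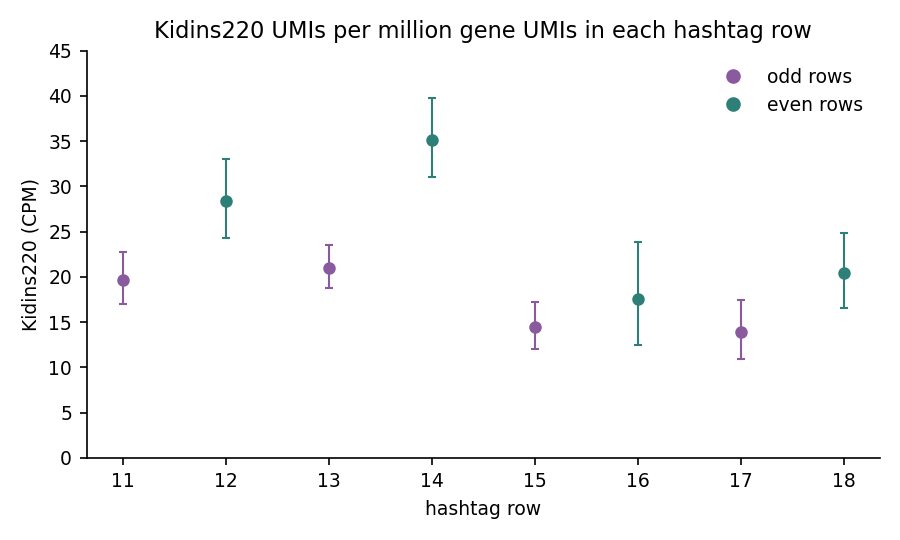
Kidins220 level in CPM (vertical axis) in each hashtag row (horizontal axis), as the sum over the cells of a row with its exact 95% Poisson interval, odd rows in purple and even rows in green. Rows 12 (28.4) and 14 (35.2) lie highest, and rows 15 (14.5) and 17 (13.9) lowest.

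The odd and even rows held different cells. Summed over 5 markers of stage 3 iNKT1 cells (Klrb1c, Tbx21, Il2rb, Nkg7, Klrd1), even rows reached between 3317 and 3743 CPM and odd rows between 156 and 183 CPM, with Nkg7 the most abundant. A set of 7 markers of stage 0 iNKT cells, led by Cd24a, summed to between 955 and 1472 CPM in odd rows and between 298 and 334 CPM in even rows. B cell markers (led by Cd79a, 417 to 968 CPM) and dendritic and myeloid markers (led by Cst3, 3879 to 11192 CPM) were also plentiful in the odd rows, against at most 53.0 and 521 CPM in the even rows. The odd rows were thus mixtures although the label names iNKT cells only. The authors also detected B cells, myeloid cells and DP and double-negative thymocytes, and removed them. They propose poor staining of the cells in that sort as a possible reason. By marker sums every even row held stage 3 iNKT1 cells, and the label alternates stage 0 and stage 3 from hashtag to hashtag. The odd rows would then be those sorted as stage 0. No row is named by a stage here, because the sources do not pair rows with hashtags.

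Over the odd rows together Kidins220 stood at 18.2 CPM (16.9 to 19.6), and over the even rows at 27.7 CPM (25.5 to 30.1). The cells differed in depth, with a median of 7135 UMIs in odd and 3400.5 in even rows, and the CPM of Kidins220 fell with depth inside both sets. With the cells of each set ranked by depth and cut into 4 groups of like size, it was 45.6, 27.7, 26.2 and 21.6 CPM from the shallowest to the deepest group in the even rows, and 32.7, 27.4, 18.3 and 13.5 CPM in the odd rows. Groups of near depth did not all order the sets the same way. The second odd group, with a median of 5217 UMIs, had 27.4 CPM (23.2 to 32.1), and the deepest even group, with a median of 4758 UMIs, had 21.6 CPM (18.4 to 25.1). The shallowest odd group, with a median of 2679 UMIs, had 32.7 CPM (26.4 to 40.1), between the 45.6 CPM (38.4 to 53.8) of the shallowest even group (median 2221.5) and the 27.7 CPM (23 to 33.0) of the second (median 3094). Malat1, a nuclear non-coding RNA chosen after its values were seen, fell with depth as well, from 9847 to 5063 CPM over the even groups and from 14204 to 2908 CPM over the odd ones. Actb, which encodes actin, rose over the even groups from 8295 to 10812 CPM, and was at 11932, 11437, 13588 and 8878 CPM over the odd ones.

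The share of cells with a Kidins220 UMI was higher in the deeper odd rows than in the even rows, and within each set the rows had the same order by share as by CPM. It was 13.8%, 16.5%, 13.4% and 11.3% in rows 11, 13, 15 and 17, and 8.90%, 10.9%, 6.76% and 7.58% in rows 12, 14, 16 and 18. Once each cell was thinned to 2000 gene UMIs, in a single random draw, it was between 3.23% and 3.99% in the odd rows. It was then 5.35% (4.31 to 6.56) in row 12, 6.66% (5.60 to 7.85) in row 14, 2.75% (1.51 to 4.57) in row 16 and 4.34% (3.22 to 5.72) in row 18. The thinning left out between 25 cells (row 17) and 195 cells (row 14). No class of cells known to lack Kidins220 was at hand to set a level for free RNA.

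Within the even rows Kidins220 varied more than most genes. The highest row was 2.01 times the lowest, and 0.906% of the 6291 genes of at least 20 CPM there, 57 genes, reached 2-fold. The median gene had a ratio of 1.19, and 0.874% of the genes had a larger ratio than Kidins220. Kidins220 passed the limit only just, as did Lgals1, which encodes galectin-1, at 2.02 and Tcrg-C1, a constant region of the gamma chain of the TCR, at 2.01. Its lowest row, row 16, held 40 of its UMIs. The rows also differed in other genes. Xist, on the X chromosome, was at 9.58 CPM in row 12 and between 177 and 218 CPM in the others. Eif2s3y, on the Y chromosome, was at 62.8 CPM in row 12 and between 16.2 and 27.2 CPM in the others. Igkv3-10, an immunoglobulin gene, was at 1129 CPM in row 12 and at most 0.821 CPM in the others. Intervals were apart between rows 12 and 16, 14 and 16, and 14 and 18, 3 of 6 pairs, and at least 3 pairs were apart for 9.06% of genes. With hashtags assigned by HTODemux the ratio was 1.91, under the limit, and it was 1.62 without row 14 and 1.72 without row 16. Within the 4 groups of cell depth, row 14 was above rows 16 and 18 each time. Row 12 was above row 16 in all 4 groups and above row 18 in 3 of 4.

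The cells of the even rows were split by marker UMIs into states. Cells with at least 3 UMIs of Mcm3 and Mcm5, which encode subunits of the replicative helicase, were called replicating. Of the others, cells with at least 3 UMIs of Isg15, an interferon-induced gene, formed the interferon state, cells with at least 3 UMIs of the chemokine gene Ccl5 the Ccl5 state, and cells with a UMI of Izumo1r, which encodes folate receptor 4, the Izumo1r state. The largest group was the rest, with 2840 of 5758 cells.

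Summed over the 4 rows, Kidins220 was at 31.9 CPM (28.4 to 35.8) in the rest, 28.3 CPM (23.4 to 33.8) in the Ccl5 state, 24.0 CPM (20.0 to 28.7) in the Izumo1r state, 22.1 CPM (11.4 to 38.7) in the interferon state and 14.9 CPM (9.36 to 22.6) in the replicating state. The order of the states differed between rows. The rest was highest in row 14, the Ccl5 state in rows 16 and 18, and the interferon state, at 38.4 CPM from 8 UMIs, in row 12. In replicating cells it was 19.3 CPM in row 12, 24.6 in row 14, 8.43 in row 16 and 6.44 in row 18, from 7, 10, 2 and 3 UMIs. In the Ccl5 state it was 23.9, 33.4, 25.3 and 26.9 CPM in the same rows. The 2 groups overlapped, since row 14 of the replicating cells lay above row 12 of the Ccl5 state, but replicating cells were lower in each of the 4 rows. edgeR's quasi-likelihood test with the row as a block gave a log2 fold of -0.84 ± 0.33 (SE, 4 rows) and an adjusted p of 0.0559, which missed the threshold of 0.05, while 21.4% of 8485 genes passed in this contrast. Without row 12 the adjusted p of edgeR was 0.0477, at a log2 fold of -1.04, and without row 18 it was 0.319, at -0.56, so 1 row decides this call. Replicating cells were deeper, with a median of 6304.5 UMIs against 3484 in the Ccl5 state, in a library where the CPM of Kidins220 fell with depth, and the part of depth in the difference was not tested.

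The other states did not pass. Against the Ccl5 state, the log2 fold by edgeR was 0.09 ± 0.17 in the rest (adjusted p = 0.903, 95% interval -0.25 to 0.43), -0.20 ± 0.20 in the Izumo1r state (adjusted p = 0.797, -0.59 to 0.20) and -0.18 ± 0.46 in the interferon state (adjusted p = 0.957, -1.08 to 0.72). In these contrasts 2.71%, 4.63% and 3.10% of genes passed. With each cell thinned to 2000 UMIs, the share of cells with a Kidins220 UMI was 1.41% (0.291 to 4.06) in replicating cells, 3.76% (1.23 to 8.56) in the interferon state, 5.31% (4.08 to 6.79) in the Ccl5 state, 5.25% (4.12 to 6.59) in the Izumo1r state and 5.92% (5.01 to 6.94) in the rest. The interval of the replicating cells, from 3 cells with a UMI, lay below those of the Ccl5 and Izumo1r states and the rest. It did so only just for the Ccl5 state, with bounds of 4.06 and 4.08, in a single random draw over the pooled cells of 4 rows. Without thinning, the share was 9.63% in the deeper replicating cells and 9.65% in the Ccl5 state. The interferon state of row 16 had 19 cells and was left out of the fit, and the state held 12 Kidins220 UMIs in all, so only a large difference could have been seen there.

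The spread between rows was clearest in the rest. There Kidins220 stood at 31.9 CPM in row 12 (25.7 to 39.2), 40.4 in row 14 (34.0 to 47.7), 14.6 in row 16 (7.99 to 24.5) and 25 in row 18 (18.3 to 33.4). Row 16 was apart from rows 12 and 14, and row 18 from row 14. Row 14 was above rows 16 and 18 in all 5 states. Row 12 was above them in 4 states, but not in the Ccl5 state. The intervals of the 4 rows overlapped in every state other than the rest.

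**Figure D2:**
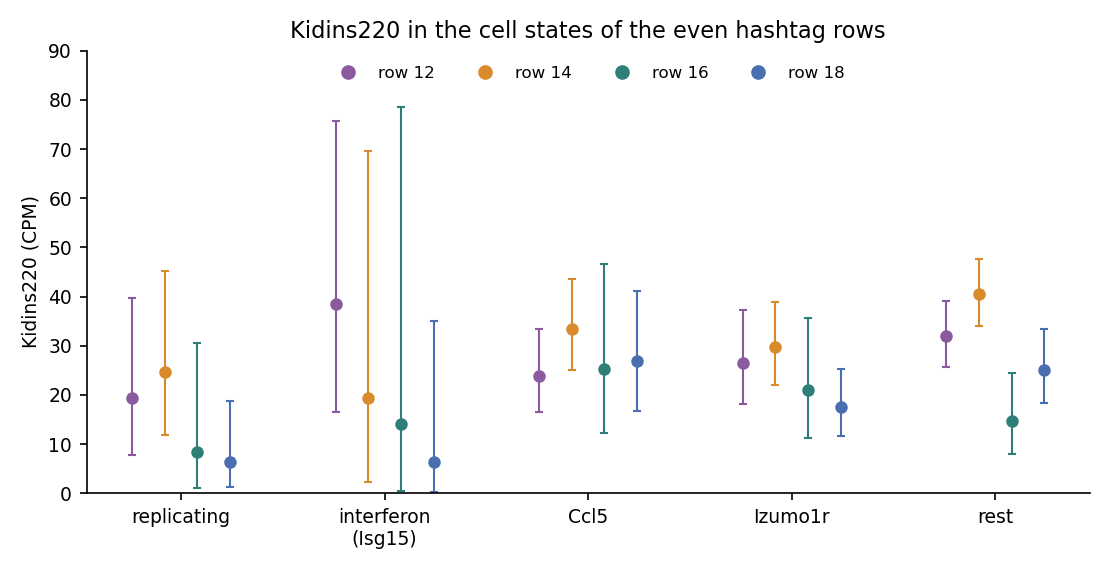
Kidins220 level in CPM (vertical axis) in each cell state of the even hashtag rows (horizontal axis), 1 point per row with its exact 95% Poisson interval. Intervals are wide in the replicating and interferon states, which held 22 and 12 UMIs, and rows 14 and 16 of the rest (40.4 and 14.6 CPM) are apart.

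The cells of the odd rows were split by the first match of Cd79a (a chain of the B cell receptor, at least 2 UMIs), Cst3 (cystatin C, abundant in dendritic cells, at least 5), Rag1 (recombinase of DP thymocytes, at least 1) and Ikzf2 (the transcription factor Helios, at least 2), and the rest. The gene that selected a class is itself on its marker list, so sums are given without it. The 810 Cd79a cells carried the other 4 B cell markers at 1953 CPM in sum, against at most 30.8 CPM in another class. The 972 Cst3 cells carried the other 7 dendritic and myeloid markers at 8273 CPM, against at most 4628 CPM, in Cd79a cells. The 418 Rag1 cells carried the other 5 DP and double-negative thymocyte markers, led by Dntt, at 1305 CPM, against at most 907 CPM, in the rest. The 1106 Ikzf2 cells carried the other 6 stage 0 iNKT markers at 1578 CPM, against at most 1287 CPM, in the rest, and T cell markers (Cd3e, Cd3d, Cd3g) at 2362 CPM. Of these 6 markers, Cd24a did not set the class apart, at 341 CPM in Ikzf2 cells and between 332 and 374 CPM in the other classes. Zbtb16, also among the 6, encodes PLZF, the transcription factor that defines iNKT cells. It reached only 11.3 CPM in the Ikzf2 cells against between 64.7 and 74.7 CPM in the even rows. The Ikzf2 cells are therefore called here by that gene and not by a cell type.

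Kidins220 was present in all 5 classes at like levels. It was 20.6 CPM (17.7 to 23.9) in Ikzf2 cells, 18.6 (15.4 to 22.2) in Cd79a cells, 17.7 (14.7 to 21.1) in the rest, 17.4 (15.1 to 20.1) in Cst3 cells and 16.1 (13 to 19.8) in Rag1 cells, and all 5 intervals overlapped. The deepest class, with a median of 13561.5 UMIs, was the Rag1 cells, and the Ikzf2 cells had a median of 5517.5. The thinned share of cells with a Kidins220 UMI was 4.46% (3.3 to 5.89) in Ikzf2 cells, 3.66% (2.46 to 5.21) in Cd79a cells, 2.90% (1.87 to 4.28) in the rest, 3.71% (2.61 to 5.10) in Cst3 cells and 4.37% (2.57 to 6.91) in Rag1 cells, with all intervals overlapping.

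None of the classes differed from the Ikzf2 cells by edgeR's quasi-likelihood test over the 4 rows. The log2 fold was 0.35 ± 0.22 in Cd79a cells (adjusted p = 0.179, 95% interval -0.08 to 0.79), in a contrast where 57.0% of 10680 genes passed. In Cst3 cells it was 0.07 ± 0.20 (adjusted p = 0.802, -0.32 to 0.46), where 50.2% passed. In Rag1 cells it was -0.17 ± 0.23 (adjusted p = 0.597, -0.62 to 0.28), where 41.3% passed, and in the rest -0.17 ± 0.21 (adjusted p = 0.650, -0.59 to 0.25), where 16.9% passed. The sign in the first 2 classes rests on the scaling. Scaled by library totals instead of TMM, Kidins220 stood at -0.19 in Cd79a and -0.24 in Cst3 cells. This scaling moved all genes, with their median going from -0.02 to -0.56 and from -0.01 to -0.32. Kidins220 lay above the median gene in both classes, though in Cst3 cells (0.07 against -0.01) by less than its SE of 0.20. Because a change of scaling moves the genes of a contrast nearly alike, it does not test this position. A p above the threshold does not show that levels were equal.

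**Figure D3:**
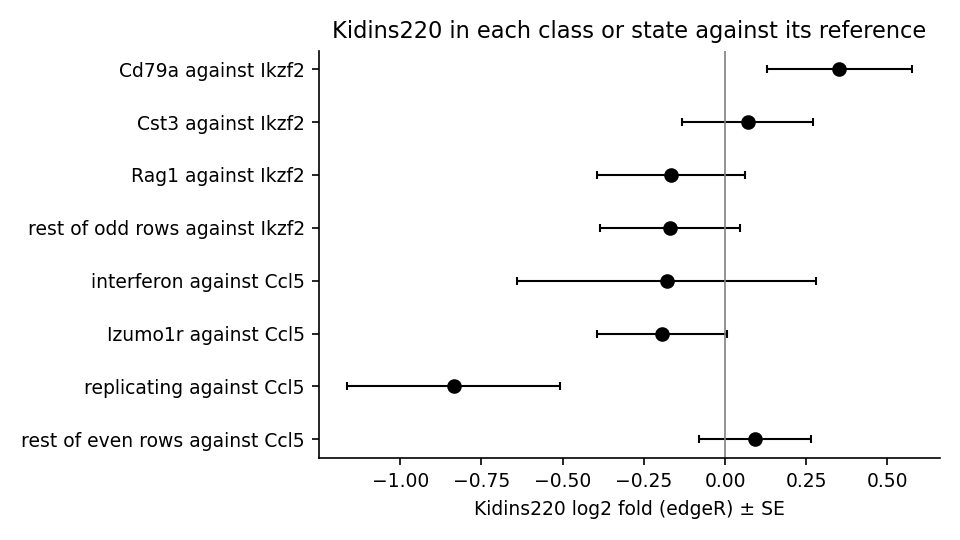
Log2 fold of Kidins220 (horizontal axis) with its standard error from edgeR, for each class of the odd rows against the Ikzf2 class and each state of the even rows against the Ccl5 state (vertical axis). The replicating state lies farthest from 0, at -0.84, and no contrast passed the adjusted threshold of 0.05.

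Rows differed in some classes. In Ikzf2 cells Kidins220 stood at 11.9 CPM in row 11 (6.49 to 19.9), 27.7 in row 13 (22.5 to 33.7), 17.1 in row 15 (11.9 to 23.7) and 16.5 in row 17 (11 to 23.6). Row 13 was above the others and its interval was apart from that of row 11 only. The ratio of highest to lowest was 2.33, and 2.36% of 6812 genes reached 2-fold between these sums. Without row 13 the ratio was 1.44, and without row 11 it was 1.68, so the value needs both rows.

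In Rag1 cells the order was another. Kidins220 stood at 29.2 CPM in row 11 (17.6 to 45.6), 19 in row 13 (13.6 to 25.9), 13 in row 15 (8.23 to 19.5) and 7.58 in row 17 (3.27 to 14.9). Rows 11 and 17 were apart, from 19 and 8 UMIs. The ratio of highest to lowest was 3.85, where 3.94% of 6165 genes of at least 20 CPM reached 2-fold and 0.260% had a larger ratio, though Kidins220, at 16.1 CPM in this class, was itself under that minimum. Without row 11 the ratio was 2.51, and without row 17 it was 2.25. The 72 Rag1 cells of row 11 had a median of 3684.5 UMIs, against between 14409 and 15274 in the other rows, and the part of this depth in the level was not tested. Cst3 cells showed the smallest spread, with 19.3, 17.4, 15.1 and 15.7 CPM in rows 11, 13, 15 and 17, and all intervals overlapped. They also overlapped in the rest (22.9, 17.9, 13.1 and 16 CPM) and in Cd79a cells (19.5, 21.3, 12 and 9.19 CPM). In Cd79a cells the ratio was 2.32, where 15.1% of genes of at least 20 CPM reached 2-fold. Kidins220, at 18.6 CPM in this class, was again under that minimum, and its value in row 17 came from 4 UMIs.

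**Figure D4:**
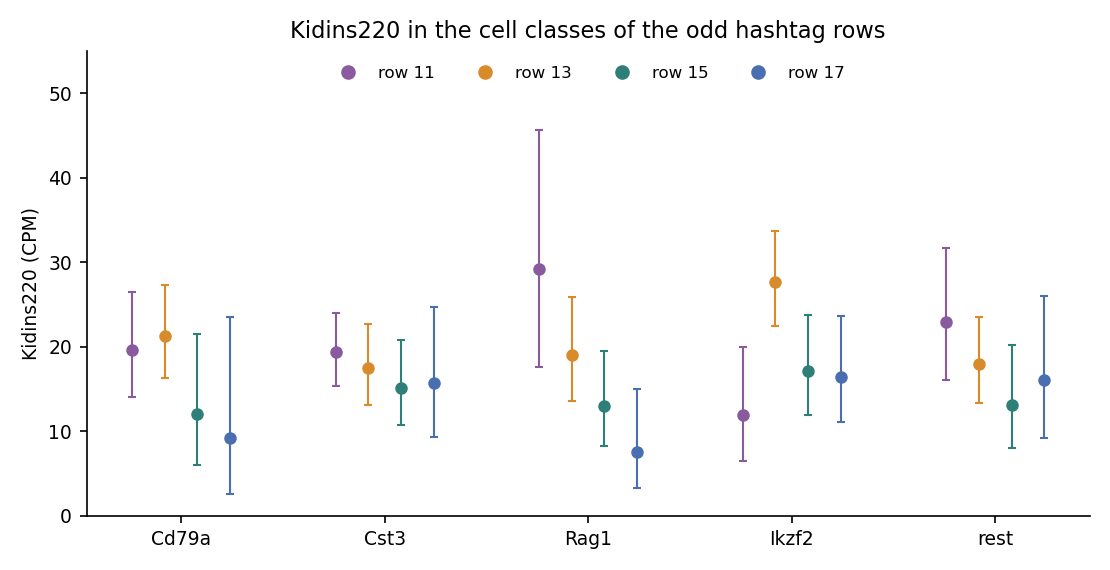
Kidins220 level in CPM (vertical axis) in each cell class of the odd hashtag rows (horizontal axis), 1 point per row with its exact 95% Poisson interval. Row 11 is lowest among the Ikzf2 cells (11.9 CPM) and highest among the Rag1 cells (29.2 CPM), while the 4 rows of the Cst3 cells lie between 15.1 and 19.3 CPM.

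The Ikzf2 cells were divided further by Mki67 (a proliferation antigen), Tnfrsf9 (the costimulatory receptor 4-1BB) and Cd7, with at least 2 UMIs each. Mki67 cells had 16.1 CPM of Kidins220 (12.6 to 20.4), Tnfrsf9 cells 17.7 CPM (11.7 to 25.5), Cd7 cells 33.1 CPM (17.1 to 57.9, from 12 UMIs) and the rest 28.9 CPM (22.5 to 36.7). Mki67 cells and the rest were apart, and their median depth was 13810 and 3989.5 UMIs. In the rest, row 13 had 40.0 CPM (28.5 to 54.7) and rows 11, 15 and 17 had 25, 16.5 and 22.6 CPM.

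Partners of Kidins220 were read beside it, from a list of 23 genes. Of the protein kinase D genes, Prkd2 and Prkd3 were at 53.4 and 53.5 CPM over all cells, and Prkd1 had no UMI among the 59024792 counted. A count of 0 was taken to allow at most 3 UMIs, a set limit and not the exact interval used for levels. The neurotrophin receptor gene Ntrk2 had no UMI either, while Ntrk3 had 5.57 CPM and Ngfr 1.69 CPM. The small GTPase genes Rac1, Rap1a and Rap1b were at 351, 227 and 291 CPM, and Map2k2, which encodes the kinase MEK2 of the ERK pathway, was at 177 CPM. Molecules were counted from their 5′ ends, so these levels were not divided by length, and genes are not ranked by them. Of the 14 genes of the list with at least 20 CPM in the even rows, 0 reached 2-fold between these rows, as did only 0.906% of all genes tested there. Prkd3, for one, was at 78.6, 81.0, 78.0 and 79.6 CPM in rows 12, 14, 16 and 18.

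Between classes, the partners were called in shares near those of all genes in Cd79a, Cst3 and Rag1 cells. In Cd79a cells 8 of the 17 tested passed against the Ikzf2 cells by edgeR, where 57.0% of all genes did, and 6 of them were higher and 2 lower. The median of the 17 was 0.03, against -0.02 over all genes. Most of these directions rest on the scaling: by library totals without TMM, which moved the median of all genes to -0.56, 1 was higher and 10 lower. Under both scalings Map2k1, a kinase upstream of ERK, rose, by 1.84 ± 0.11 on the log2 scale with TMM (adjusted p = 5.07e-16), and Ntrk3 fell, by 3.41 (± 0.59, adjusted p = 9.40e-06). In Cst3 cells 7 were higher and 4 lower, where 50.2% of all genes passed, and 4 were higher and 7 lower without TMM. Under both scalings Trio, an exchange factor for small GTPases, rose, by 2.99 ± 0.22 with TMM (adjusted p = 1.12e-13), and Prkd2 fell, by 1.34 (± 0.12, adjusted p = 2.53e-11). In Rag1 cells, where 41.3% of all genes passed, 2 were higher and 4 lower, and 0 and 6 without TMM. Prkd2 was lower under both (-0.84 ± 0.13, adjusted p = 2.14e-06 with TMM). In the rest, where 16.9% of all genes passed, none of the 17 was called under either scaling.

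Between the states of the even rows, 16 partners were tested. In replicating cells, where 21.4% of all genes were called, 2 of the 16 passed: Mapk3 (ERK1) rose by 0.62 ± 0.16 (adjusted p = 0.00172) and Rap1b fell by 0.40 (± 0.08, adjusted p = 4.50e-05). In the Izumo1r state, where 4.63% of all genes were called, 1 of the 16 passed: Rap1a rose by 0.25 ± 0.08 (adjusted p = 0.0389). None was called in the interferon state or the rest, where 3.10% and 2.71% of all genes were. These shares of the partners were near or below those of all genes. Of 14 tested genes of antigen receptor signaling, 7 fell in replicating cells and none rose, with a median of -0.24 against -0.02 over all genes, against the same 21.4% of all genes. Among them were Plcg1 (-0.63 ± 0.18, adjusted p = 0.00520), a phospholipase, and Lck (-0.25 ± 0.07, adjusted p = 0.00530), the kinase that starts TCR signaling. In the Izumo1r state, where 4.63% of all genes were called, 4 of the 14 rose, Zap70 by 0.33 ± 0.07 (adjusted p = 0.000716). Of the 18 genes of this list tested between classes, 13 fell and 5 rose in Cd79a cells, where 57.0% of all genes passed, and 13 fell and 4 rose in Cst3 cells, where 50.2% passed. The 13 that fell were the same genes in both classes, all linked to the TCR, with Cd3e and Trac among them. Those that rose in Cd79a cells were Cd79b, Syk, Btk, Blnk and Plcg2, linked to the B cell receptor, and all of these but Cd79b rose in Cst3 cells. The list joins both receptors and the classes were set by cell markers, so these counts do not measure antigen receptor signaling as a whole. The counts were equal without TMM. In Rag1 cells 3 were higher and 7 lower, where 41.3% of all genes passed, and 1 and 7 without TMM. In the rest 5 were higher and 2 lower, where 16.9% passed, and 5 and 1 without TMM. In the interferon state of the even rows none of 14 was called, where 3.10% of all genes were.

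Among the genes annotated within 250 kb of Kidins220, Id2 and Gm36723 had at least 20 CPM in the even rows. Id2, 30.6 kb downstream on the minus strand (chr12:25093799-25097140), encodes an inhibitor of E proteins that iNKT1 cells express. It was at 955, 993, 1002 and 1036 CPM in rows 12, 14, 16 and 18, highest in row 18 and lowest in row 12, with a ratio of 1.08. Gm36723, a long non-coding RNA gene 241 kb downstream on the plus strand (chr12:25303940-25471979), was at 28.2 CPM in row 12 (24.2 to 32.8), 30.9 in row 14 (27.0 to 35.2), 3.94 in row 16 (1.80 to 7.48) and 5.98 in row 18 (4.00 to 8.59). Rows 12 and 14 were high and rows 16 and 18 low, with intervals apart. The ratio of highest to lowest of Gm36723 was 7.85. Kidins220 was also higher in rows 12 and 14 than in rows 16 and 18, but its intervals of rows 12 and 18 overlapped. Of the 57 genes that reached 2-fold, 26 had this order of the rows, and 24 had rows 16 and 18 both above rows 12 and 14.

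In the odd rows Gm36723 was counted almost only in Cst3 cells, with 114 of 118 UMIs in row 11, 60 of 68 in row 13, 35 of 37 in row 15 and 14 of 15 in row 17. In CPM of the Cst3 cells this was 27.2 (22.4 to 32.7), 19 (14.5 to 24.5), 13.9 (9.70 to 19.4) and 12.2 (6.66 to 20.4). Row 11 was apart from rows 15 and 17. Kidins220 in the same cells was at 19.3, 17.4, 15.1 and 15.7 CPM.

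**Figure D5:**
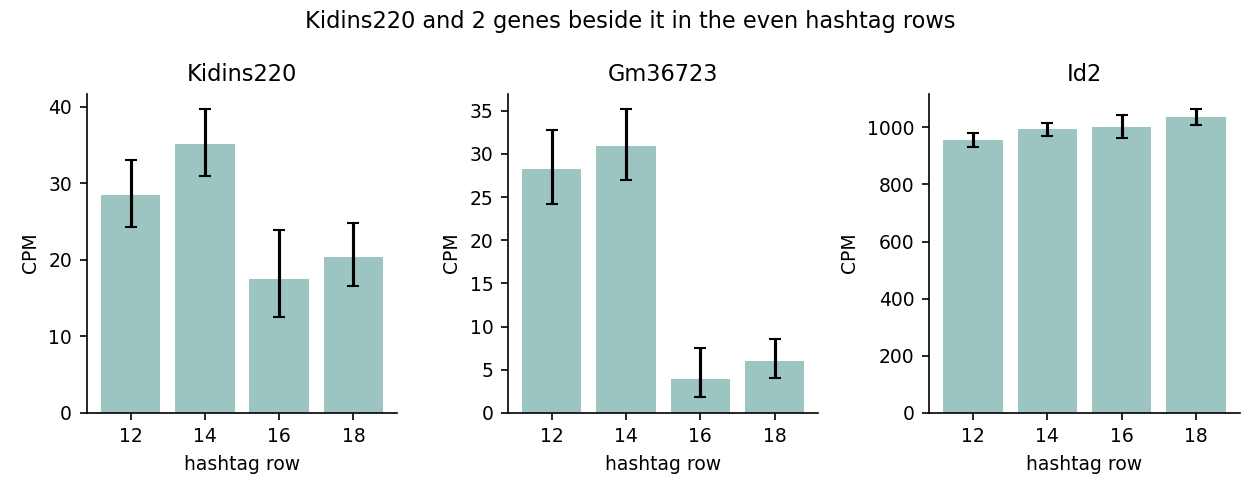
Levels in CPM (vertical axes, each from 0) of Kidins220, Gm36723 and Id2 in the 4 even hashtag rows (horizontal axes), as bars with exact 95% Poisson intervals. Gm36723 falls from 28.2 and 30.9 CPM in rows 12 and 14 to 3.94 and 5.98 CPM in rows 16 and 18, and Id2 stays between 955 and 1036 CPM.

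Genes whose level ran most like that of Kidins220 were ranked by Pearson's r of log2(CPM + 10) among 6625 genes, as a description. All points come from 1 library and share its depth differences. Over 39 sums of rows by class or state the closest were Clk4 (r = 0.71), a kinase of splicing factors, Dnajb1 (0.67) and Hspa1b (0.65), both heat shock genes, Pttg1ip (0.63) and Napg (0.63), where the 95th percentile of all genes was 0.40. The most opposed were the cell cycle genes Cdkn2c (-0.61) and E2f2 (-0.60), and Mpdu1 (-0.56). Over the 8 rows the closest were Dnajb1 (0.97), Rassf1 (0.95), Hspa1b (0.95), Trmt1l (0.94) and Rhob (0.93), and the most opposed Prelid1 (-0.98), Asna1 (-0.98) and Eipr1 (-0.97). The 95th percentile over 8 rows was 0.70.

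Hspa1b is described further because it ranked among these genes, so its order over the rows is given by that choice. It was at 1021 CPM in row 12, 1316 in row 14, 317 in row 16 and 457 in row 18, and at 648, 452, 305 and 175 CPM in rows 11, 13, 15 and 17. Row 11 was above row 13 for Hspa1b, where the Kidins220 intervals of these rows overlapped. Jun and Fos, early response genes named after their values were seen, were at 427 and 276 CPM in row 12 and 576 and 457 CPM in row 14, against 215 and 125 CPM in row 16 and 325 and 282 CPM in row 18. Fos was thus no higher in row 12 than in row 18. Within a row, the Kidins220 intervals of cells with and without an Hspa1b UMI overlapped in all 8 rows. Cells with Hspa1b had 29.1 against 27.5 CPM in cells without it in row 12, 34.0 against 38.6 in row 14, 17.4 against 17.6 in row 16, and 14.6 (10.2 to 20.3) against 26.1 (20.1 to 33.4) in row 18. This split was chosen after the row values were seen, and whether handling of the cells had a part in the row levels of Kidins220 was not tested.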

How the data were processed

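The authors aligned and counted the reads of the transcript and hashtag libraries with Cell Ranger on mm10, and deposited raw UMI counts of each gene and hashtag for 16179 barcodes with between 500 and 58008 gene UMIs. Seurat is also named in the submitters' processing notes. The 12147 barcodes that had 1000 or more genes and no more than 5% mitochondrial UMIs were kept. They were assigned to the hashtag row that held at least 80% of at least 10 UMIs on rows 11 to 18. This step was aimed at doublets between rows and left 10007 cells. Doublets with unequal hashtag counts may have passed it, which was not tested. Doublets within a row were addressed only by a limit of 4000 genes as an alternative.

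Levels are sums of UMIs over sums of gene UMIs. Sums per row and class or state with at least 20 cells were tested with edgeR 4.0.16 (filterByExpr, TMM, row as a block, Benjamini-Hochberg over all genes of a contrast, threshold 0.05). A row is a separately sorted pool, rows of both genotypes may be among the 4 rows tested, and classes of a row share that row. The 95% interval of a log2 fold is the fold ± its normal quantile times the SE. In counts simulated for Cd79a against Ikzf2 over 10406 genes, 98% of the genes changed 2-fold and 100% of those changed 4-fold were recovered. For interferon against Ccl5 over 8413 genes, it was 49% and 100%. These are shares of the changed genes as a set, and the simulated spread between rows is not given here. They are therefore not the power for Kidins220, a gene of low abundance at 18.6 CPM in Cd79a cells. Classes and states rest on marker UMIs, and 293 cells lay at the Ikzf2 limit of 2 and 562 just below it.

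The members and lists were chosen with earlier results of these data known. The genes named were Kidins220, the listed partners, antigen receptor genes and markers, genes within 250 kb, and the 5 most and 3 least alike genes of at least 20 CPM without ribosomal, mitochondrial and Gm genes. Results for some genes of the lists are not reported here. The tools were R 4.3.3, DESeq2 1.42.0, Seurat 5.3.0 and Python 3.11.15.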

Additional observations from a re-analysis of the deposited data

Results flagged for a closer look

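Hashtag UMIs were found on the 12 rows that are not in use here, above the set limit of 3 taken for a count of 0. They numbered 12255 on row 1, 300 on row 2, 54 on row 3, 11854 on row 4, 33 on row 5, 161 on row 6, 599 on row 7, 231 on row 8, 14 on row 9, 26 on row 10, 60 on row 19 and 12 on row 20. Of the UMIs on row 1, 6978 lay on the cells assigned to row 14, and of those on row 4, 5258 lay on cells assigned to row 15. The hashtag UMIs of rows 11 to 18 ran from 1352182 on row 16 to 7856856 on row 12. No value of Kidins220 in the 16 sets of 4 rows that were checked, by row, class, state or part of the Ikzf2 class, stood apart from the others beyond the 95% limit of Dixon's test.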

How the results depend on the processing

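The levels in rows 11 to 18 stayed inside their counting intervals with a 95% hashtag share, with HTODemux and, an alternative chosen after seeing the data, without cells matching Cd79a, Cst3 or Rag1. With 500 genes and 10% mitochondrial UMIs the CPM rose to 23.2, 34.9, 25.8, 42.4, 17.3 and 17.5 in rows 11, 12, 13, 14, 15 and 17. Without ribosomal and Gm genes in the total it was 24.1, 37.7, 26.2, 46.4, 18 and 26.5 in rows 11, 12, 13, 14, 15 and 18. As a mean over cells it was 23.5, 29.0, 19.2 and 18.7 in rows 11, 13, 15 and 17, and with at most 4000 genes it was 17.4 in row 17. Without thinning, the share of cells with a Kidins220 UMI was 13.8%, 8.90%, 16.5%, 10.9%, 13.4%, 6.76%, 11.3% and 7.58% in rows 11 to 18, 12.8%, 17.5%, 17.7%, 14.3% and 11.1% in the Cd79a, Cst3, Rag1 and Ikzf2 classes and the rest, and 9.63%, 9.65%, 8.55% and 9.23% in the replicating, Ccl5 and Izumo1r states and the rest.

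Some log2 folds of Kidins220, none of them past the threshold, changed sign. By library totals without TMM, chosen after seeing the data, they were -0.19 for Cd79a and -0.24 for Cst3 cells. The median of all genes was then -0.56 and -0.32. With marker limits 1 UMI higher the folds of Kidins220 were -0.15 for Cst3 cells and -0.065 for the even rest. With a 95% hashtag share the fold was 0.19 for interferon. Other folds moved further from 0 by edgeR, also without passing. With a 95% hashtag share it was 0.51 for Cd79a cells (95% interval 0.06 to 0.96, adjusted p = 0.0631). With marker limits 1 UMI higher it was -0.45 for the odd rest (-0.83 to -0.06, adjusted p = 0.0799). The causes were not tested. Leaving out each row gave 0.16 to 0.43 for Cd79a, -0.11 to 0.34 for Cst3, -0.46 to 0.020 for Rag1 and -0.38 to 0.11 for the odd rest, and -1.10 to -0.56 for replicating, -1.28 to 0.18 for interferon, -0.33 to -0.09 for Izumo1r and -0.025 to 0.17 for the even rest. Of these only replicating without row 12 passed (adjusted p = 0.0477 by edgeR). For replicating cells the other alternatives gave an adjusted p between 0.0545 (no filter on low genes) and 0.123 (no replicate block). Without the replicate block the log2 fold was 0.46, 0.12, -0.16 and -0.11 for Cd79a, Cst3, Rag1 and the odd rest, and -0.94, -0.23, -0.27 and 0.04 for replicating, interferon, Izumo1r and the even rest, which changed no call of Kidins220. DESeq2 gave -0.85 for replicating (adjusted p = 0.0946) and no adjusted p for the even rest. The highest even row over the lowest was 1.91 with HTODemux and between 1.62 and 2.01 without a row, and that of the Ikzf2 class sums between 1.44 and 2.33 without a row.

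Counts of genes called moved by over 1.5 times for the odd rest, from 1810 to 3283 with higher limits, and to 630 and 1033 without rows 13 and 15. For Izumo1r they moved from 393 to 174 without the replicate block, 225 with a 95% share, and 251 and 256 without rows 14 and 18. For the even rest they moved from 230 to 65, 129, 144 and 146 in the same order. Kidins220 had between 1 and 140 UMIs per sum, which limits each of these values.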
